A study of Mus musculus with 22 samples.

Results

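The regions described here are short stretches of the mouse genome that carried H3K4me3 in all 5 cell types profiled in the developing neocortex and H3K27me3 in none of them. They were chosen by measured values, the positions of the called peaks. Peaks of the 5 H3K4me3 lists that overlapped by at least 1 bp were merged into 17229 regions. Of these, 11345 lay on an autosome and overlapped a peak in every list, and are called constitutive here. A peak of any H3K27me3 list overlapped 2714 of them. Of the 8631 without one, 402 were 3000 bp or wider and 8229 were narrower. These 8229 regions, the members, made up 72.5% of the autosomal constitutive regions and 47.8% of all merged regions. Their presence in every list, their lack of an H3K27me3 peak and their width below 3000 bp follow from this choice and are not findings. Since the lists that chose them also gave their lengths, enrichments and summits, all comparisons with other kinds of region are descriptions.

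H3K4me3 is trimethylation of lysine 4 on histone H3. Enzymes of the SET1 and MLL families place it on the nucleosomes that flank transcription start sites, mostly at promoters in CpG islands, where a nucleosome-poor stretch often separates the marked nucleosomes. Short H3K4me3 regions are typical of promoters used by most cells, and unusually wide ones have been linked to genes of cell identity. H3K27me3 is laid down by Polycomb repressive complex PRC2 at silent or poised developmental genes, and promoters carrying both marks are called bivalent. No gene was assigned to a region here, because the gene table used is of build GRCm38.p6 and the lists are in mm9. Regions are therefore named by their mm9 position, counted from 1, and no sequence is printed.

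Purified cells of C57BL/6JOlaHsd mice were profiled by chromatin immunoprecipitation and sequencing, and the labels name no transgene or treatment. Neuroepithelial cells (NEC), the first progenitors of the cortex, were taken at embryonic day 9.5 (E9.5), and all other cells at E14.5. These were apical radial glia in a proliferative (aRG-P) or a neurogenic (aRG-N) state, which divide at the ventricle, basal radial glia (bRG), which divide away from it, and neurons (N). Each cell type had 2 samples per mark but 1 list per mark, called on the combined samples, so replicate error is unknown and the cell types could only be described side by side, with no test. The 2 aRG-N H3K27me3 samples are technical replicates, per the labels. Peak names show that a set was excluded for H3K27me3 in aRG-P, so that list may not combine both samples. NEC is the only E9.5 cell type, so cell type and age cannot be told apart for it. Intervals are 95% exact binomial intervals for shares and order-statistic intervals for medians, and cover counting error only. Read depth is unknown. The cell types were not checked against marker genes. The lists held 14801 to 17867 H3K4me3 and 3476 to 9460 H3K27me3 peaks, and 50.6% of the NEC peaks and 59.3 to 63.3% of the E14.5 peaks of H3K4me3 lay in members.

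The members had a median width of 1414 bp (1399 to 1430 bp), and most were far from the limit that defined them. The middle 80% of widths ran from 803 to 2280.2 bp, the narrowest member was 315 bp and the widest 2997 bp. Under 1000 bp there were 1718 members, of which 92 were under 500 bp, and 1539 were 2000 bp or wider. The width distribution passed over the limit without a gap, with 67 members at most 100 bp below it and 54 regions without H3K27me3 less than 100 bp above it. Constitutive regions that overlapped an H3K27me3 peak had no width limit and a median width of 1478 bp (1443 to 1511 bp), close to that of the members. Most regions with H3K27me3 thus fell in the same range of widths as the members.

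**Figure D1:**
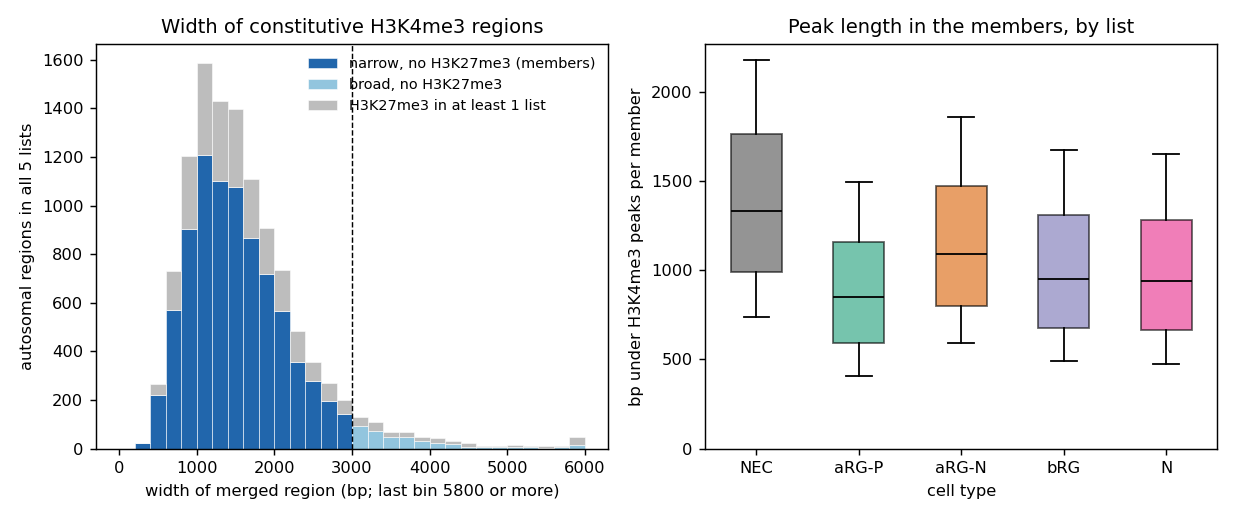
Left, number of autosomal constitutive H3K4me3 regions by width in bins of 200 bp, stacked by kind, with a dashed line at the 3000 bp limit. Right, length under H3K4me3 peaks in each of the 8229 members for the 5 lists; boxes show quartiles and the median, whiskers the 10th and 90th percentiles. The NEC box sits highest, with a median of 1332 bp, and the aRG-P box lowest, with 848 bp.

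The members at the edges of the width range differed in how evenly the cell types filled them. The widest, on chromosome 5 from 115606279 to 115609275, held 2964 bp of peak in NEC, 1443 bp in aRG-P, 2054 bp in aRG-N, 1490 bp in bRG and 1357 bp in N. NEC filled nearly all of it with a single peak, and every E14.5 list had 2 peaks. The next widest, on chromosome 5 from 31013561 to 31016554, held 2743, 2654, 2581, 2807 and 2699 bp in the same order of cell types, so here all 5 lists were alike. The third, on chromosome 10 from 98376221 to 98379201, lay 151 bp from an N H3K27me3 peak. Just outside the limit were 3 regions, of 3001 bp on chromosome 2 from 29921195 to 29924195, of 3005 bp on chromosome 9 from 26836106 to 26839110, and of 3007 bp on chromosome 3 from 121128678 to 121131684. The narrowest member, on chromosome 12 from 3234998 to 3235312, held 222 bp of peak in NEC, 182 bp in aRG-P, 315 bp in aRG-N, 250 bp in bRG and 206 bp in N. The next narrowest were on chromosome 13 from 94269881 to 94270203 (323 bp) and on chromosome 11 from 96805505 to 96805832 (328 bp). All 3 had another H3K4me3 region within 150 bp.

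NEC had the longest peaks in most members. The median length under peaks was 1332 bp for NEC, 848 bp for aRG-P, 1092 bp for aRG-N, 953 bp for bRG and 940 bp for N. In the 3116 constitutive regions that were not members it was 1434.5, 966, 1144, 1025 and 1076 bp. NEC was thus highest and aRG-P lowest there too, and this order is not particular to the members. The counts that follow were made for members only. NEC had the greatest length in 6623 members (80.5%, 79.6 to 81.3%), and its peaks reached both outer edges in 3855 (46.8%). In the median member NEC covered 98.5% of the width, aRG-N 80%, bRG 69.7%, N 69.0% and aRG-P 61.5%. The shortest length fell to aRG-P in 4571 members (55.5%), to N in 1916 (23.3%) and to bRG in 1324 (16.1%). The stretch covered in all 5 lists had a median of 727 bp, or 53.6% of the width (53.1 to 54.0%). It reached 75% of the width in 415 members. In 26 members no base was covered in all 5 lists, although each list had a peak.

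The shared stretch was a larger part of the members than of constitutive regions with H3K27me3. It was 53.6% of the width in members, 55.9% (54.8 to 57.8%) in the 402 broad regions and 45.3% (43.9 to 46.3%) in regions with H3K27me3. Less than 25% of the width was shared in 4.33% of members, against 17.6% of regions with H3K27me3. Regions are not replicates, and this difference was not tested.

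H3K4me3 within members was shorter in aRG-P than in NEC and longer in aRG-N than in aRG-P, about as often as in constitutive regions at large. The length in aRG-P was 0.646 times that in NEC in the median member (0.642 to 0.651). By 1.5 times or more, 34 members (0.413%) were longer and 4493 (54.6%) shorter in aRG-P, which makes 55.0% in either direction. The background over all 11345 autosomal constitutive regions was 1.00% longer, 53.7% shorter and 54.7% in either direction, so the members' share of shorter regions lay near it. Between the apical radial glia states, the median ratio of aRG-N to aRG-P was 1.27 (1.26 to 1.28). Here 1982 members (24.1%) were longer and 26 (0.316%) shorter in aRG-N, 24.4% in all, against a background of 23.9% longer, 0.837% shorter and 24.8% in either direction. The shares longer and in either direction lay near the background, and the small share shorter was below it. In the 3116 constitutive regions that were not members, 23.6% were longer and 2.21% shorter in aRG-N than in aRG-P. Against NEC, 2.57% of them were longer and 51.3% shorter in aRG-P. Their width was not limited, and the differences were not tested.

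Basal radial glia and neurons were set against aRG-N, and both had somewhat less H3K4me3 length in members. The median ratio of bRG to aRG-N was 0.893 (0.889 to 0.896), with 22 members (0.267%) longer and 689 (8.37%) shorter in bRG, 8.64% in all. The background was 0.829% longer, 9.88% shorter and 10.7% in either direction. The ratio of N to aRG-N was 0.872 (0.867 to 0.876), with 122 members (1.48%) longer and 1098 (13.3%) shorter in N, 14.8% in all. The background was 3.13% longer, 14.6% shorter and 17.8% in either direction. In the 3116 constitutive regions that were not members, 7.48% were longer in N than in aRG-N, against 1.48% of the members, but their width was not limited.

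The whole lists also differed in enrichment, and fold enrichment, a ratio to background that the authors' peak caller gave each peak, had a list median of 18.7 for NEC, 9 for aRG-P, 11.8 for aRG-N, 8.53 for bRG and 8.26 for N. NEC and aRG-N had both the highest list medians and the longest member peaks, and the part of list enrichment in the length ratios was not tested. When only the longest peak of each list was measured, the share of members past 1.5 times was 16.6% for bRG over aRG-N and 25.2% for N over aRG-N. When each list had to cover at least 50% of a region, which by itself bounds the ratios, the shares were 11.2% for aRG-N over aRG-P, 2.94% for bRG over aRG-N and 5.77% for N over aRG-N.

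**Figure D2:**
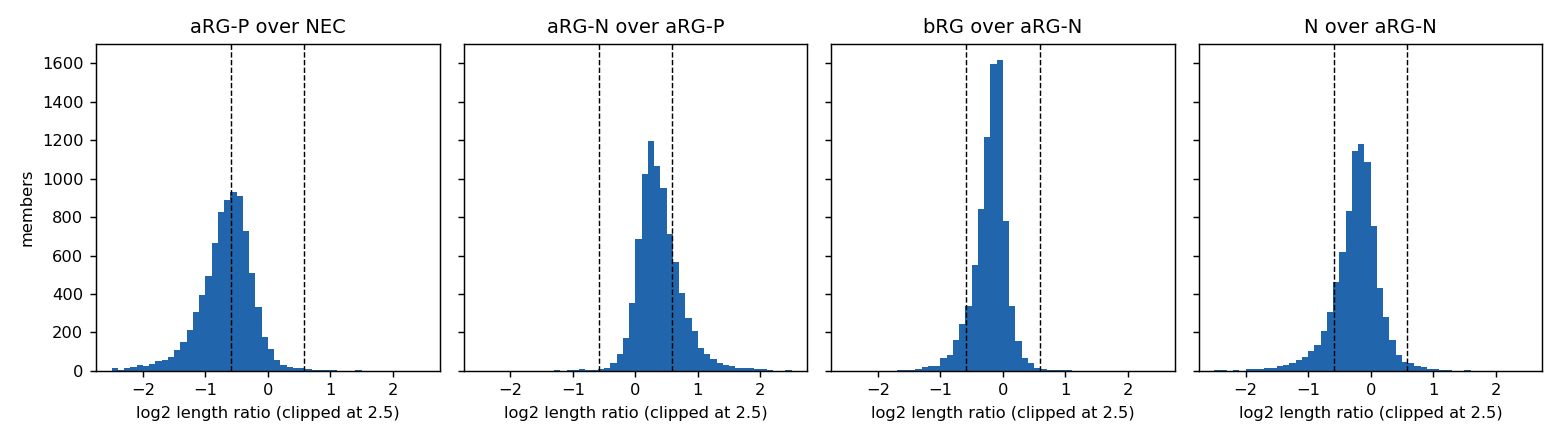
Number of members by the log2 ratio of H3K4me3 peak length between 2 cell types, in bins of 0.1 with values beyond 2.5 placed in the end bins. Dashed lines mark 1.5 times shorter and longer; the aRG-P over NEC panel lies mostly left of 0, with a median ratio of 0.646, and the aRG-N over aRG-P panel right of it, with 1.27.

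Of the members, 35.6% (34.5 to 36.6%) were broken into several peaks by short gaps in at least 1 cell type. A gap is a stretch between listed peaks of 1 list and was not shown to lack H3K4me3. With peaks merged across gaps of up to 1000 bp, 48.0% of the members so defined had a single peak in every list. That merging joins separate peaks into 1 region, which by itself lowers this share. A single peak in every list was found in 5302 members (64.4%, 63.4 to 65.5%), whose median width was 1191 bp. The other 2927 members had a median width of 1834 bp. The share broken in a given list was 9.79% for NEC, 21.1% for aRG-P, 6.43% for aRG-N, 15.2% for bRG and 19.1% for N. Over all autosomal constitutive regions, most of which are members, these shares were 10.6, 23.5, 8.51, 17.5 and 20%. In regions with H3K27me3 they were 10.6, 23.9, 11.3, 18.7 and 17.4%, so only N was broken less often there than in members. Broad regions, which are wider by definition, were broken more often, at 27.6, 68.7, 32.3, 55.7 and 56.7%. These differences were not tested. NEC and aRG-N, the lists with the highest median fold enrichment, had the lowest shares, and the part of list enrichment was not tested. Only 22 members were broken in all 5 lists.

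The gaps were short, and where 2 lists broke the same member, their gaps mostly overlapped. The median gap was 134 bp for NEC, 156 bp for aRG-P, 129 bp for aRG-N, 150 bp for bRG and 162 bp for N. No gap was shorter than 77 bp in any list. That floor was the same in all 5 lists, and the part of the peak caller in it was not tested. In the 120 to 963 members broken in both lists of a pair, between 71.8% (aRG-N gaps in NEC) and 92.2% (bRG gaps in N) of the gaps of one list overlapped a gap of the other. Over all gaps of a list, including those in members that the other list did not break, the share was 11.0% (NEC gaps in aRG-N) to 59.5% (bRG gaps in N).

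Short gaps also separated members from each other. Another H3K4me3 region lay within 1000 bp of 2323 members (28.2%, 27.3 to 29.2%), and within 5000 bp of 2821 (34.3%). Over all autosomal constitutive regions, most of which are members, these shares were 26.2% and 31.9%. They were 27.1% and 33.6% in broad regions without H3K27me3, near those of the members. In constitutive regions with H3K27me3 they were lower, at 19.9% and 24.6%, and this difference was not tested. Of the 8229 members, 680 had their nearest region under 100 bp away, 1007 from there to under 200 bp, 360 to under 300 bp and 140 to under 400 bp. Between 1000 and 5000 bp it lay for 498. Close neighbours thus lay mostly under 400 bp away. Within 1000 bp, the nearest region was another member for 1072 members (46.1%), a region found in 2 to 4 lists for 464 (20%) and a region found in 1 list for 709 (30.5%). That list was NEC in 586 of the 709. A constitutive broad region was the nearest for 33 members and a constitutive region with H3K27me3 for 45.

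Adjacent members at most 1000 bp apart formed 558 pairs, holding 1106 members (13.4%). The median gap was 143 bp (135 to 149 bp), within the range of the median gaps inside members, and 446 pairs (79.9%) had a gap of 50 to 250 bp. Measured across the gap, the pairs had a median width of 2452 bp, and 129 pairs (23.1%) would have passed the 3000 bp limit as 1 region. The summits of a pair, the bases of highest signal given by the peak caller, were 938.5 bp apart in the median in NEC, 868 bp in aRG-P, 863.5 bp in aRG-N, 852 bp in bRG and 908.5 bp in N. They leaned towards the gap, with a median distance of 358 bp to the edge at the gap and 664 bp to the outer edge in NEC. In 374 pairs (67.0%, 63.0 to 70.9%) the same member had the higher fold enrichment in all 5 lists. When peaks were merged across gaps of up to 1000 bp, 8.37% of the members so defined had another region within 5000 bp. That merging leaves no other region within 1000 bp by construction.

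**Figure D3:**
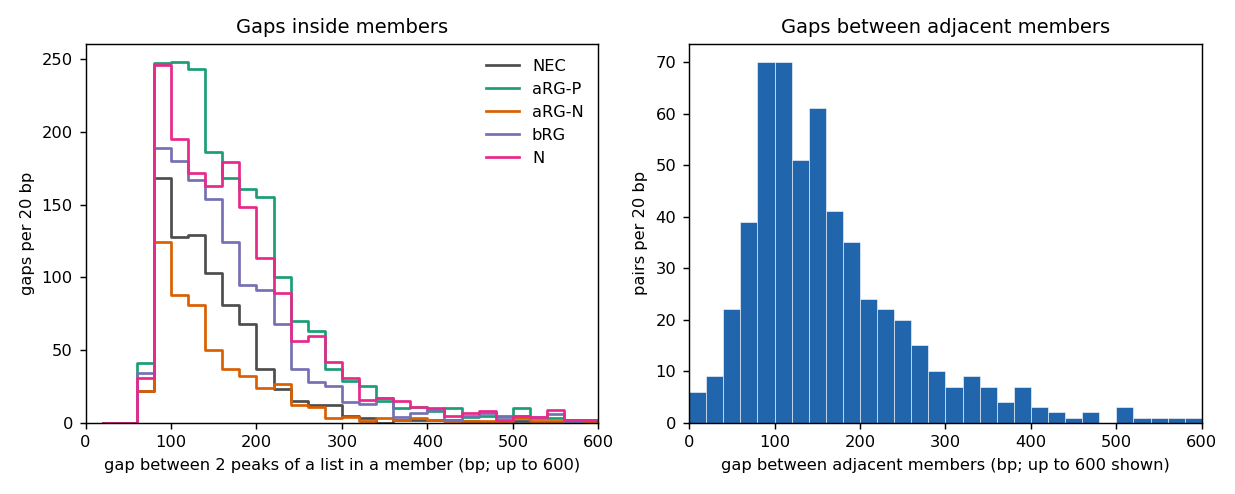
Left, gaps between peaks of the same list inside a member, counted per 20 bp for the 5 lists. Right, gaps between adjacent members, counted the same way; both panels stop at 600 bp, and in both most gaps lie between about 80 and 250 bp, with medians of 129 to 162 bp inside members and 143 bp between them.

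In most members the 5 cell types had their highest signal within 500 bp. The summits of the 5 lists spanned a median of 197 bp (192 to 201 bp) in a member, and fell within 500 bp of each other in 6956 members (84.5%, 83.7 to 85.3%). They fell within 100 bp in 1865 members (22.7%). The middle 80% of spans ran from 66 to 618.2 bp. The share within 500 bp was 80% over all autosomal constitutive regions, 37.8% in broad regions and 72.4% in regions with H3K27me3, but a wider region allows a wider span, and the width limit bounds it in members. Regions with H3K27me3 had a median span of 318 bp (308 to 328 bp). Their median width was close to that of the members, but their 90th percentile of width was 2873.1 bp, against 2280.2 bp in members, and the difference in span was not tested. In each list, 83.5 to 87.3% of the summits lay in the central 50% of the member.

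Among pairs of cell types, aRG-N and bRG had the closest summits and NEC and N the farthest. The median distance was 42 bp (40 to 44 bp) for aRG-N and bRG, and 83 bp (80 to 86 bp) for NEC and N. The other 8 pairs lay between 63 and 76 bp, and several of their intervals overlapped. All 3 pairs of N with an E14.5 progenitor, at 72 to 76 bp, had higher medians than the 3 pairs among those progenitors, at 42 to 67 bp. Broken members had a wider span, at 262 bp, than members with 1 peak in every list, at 177 bp, and 72.0% against 91.4% of them had all summits within 500 bp.

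**Figure D4:**
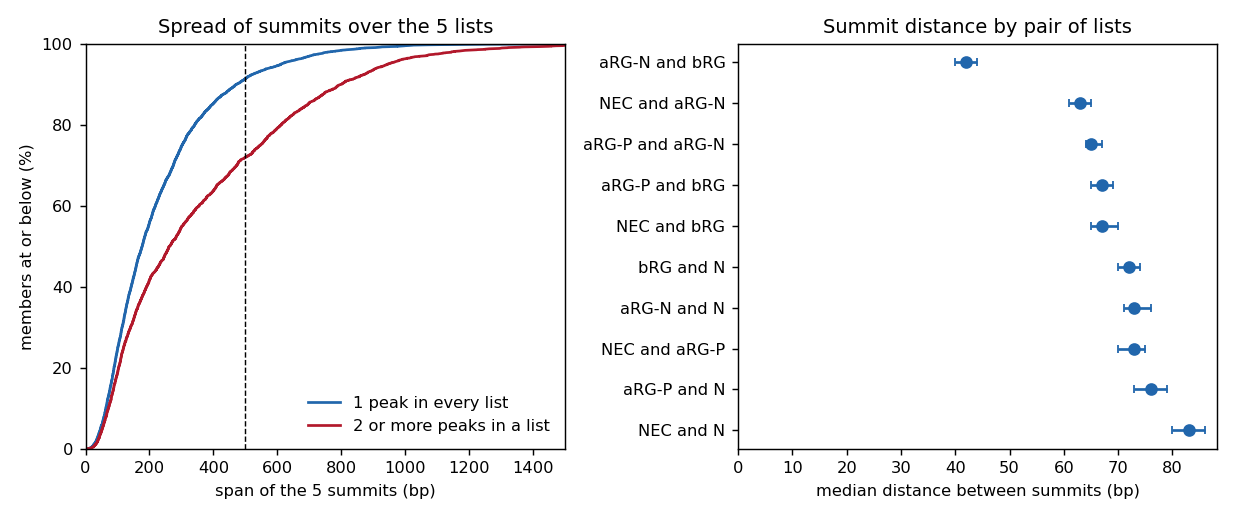
Left, cumulative percentage of members by the span of their 5 H3K4me3 summits, for members with 2 or more peaks in a list and with 1 peak in every list; the dashed line is 500 bp, reached by 72.0% and 91.4%. Right, median distance between the summits of 2 lists over the 8229 members, with its interval; aRG-N and bRG are lowest at 42 bp, and NEC and N highest at 83 bp.

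The members with the largest summit span had their highest point at different places in different cell types. On chromosome 8 from 129114902 to 129117471, each list had 1 peak of 2378 to 2570 bp. The summit lay at 129116419 for NEC, 129116474 for aRG-P, 129117088 for aRG-N, 129115217 for bRG and 129115232 for N, a span of 1871 bp. The summits of bRG and N thus lay close together near one end, those of NEC and aRG-P further in, and that of aRG-N near the other end. On chromosome 11 from 69713421 to 69716363 the span was 1833 bp, with NEC, aRG-N and bRG between 69715635 and 69715822, aRG-P at 69714340 and N at 69713989. The third, on chromosome 9 from 107535101 to 107537797, spanned 1803 bp, with aRG-N, bRG and N between 107537615 and 107537643, NEC at 107536691 and aRG-P at 107535840. It held 3 peaks in aRG-P, 2 in N and 1 in each other list. A summit marks 1 base of a broad signal, and with pooled lists its spread between samples is not known.

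Within each list the members were among the more enriched peaks. The median fold enrichment of a member's highest peak was 28.1 for NEC, 11.1 for aRG-P, 14.6 for aRG-N, 10.3 for bRG and 9.63 for N. Ranked among all peaks of its list, the median member lay at percentile 72.6 for NEC, 67.7 for aRG-P, 66.2 for aRG-N, 66.2 for bRG and 66.8 for N. Broad regions lay higher, at 82.6 to 89.8, and constitutive regions with H3K27me3 lower, at 39.6 to 49.9. All 3 kinds had to have a peak in every list, which by itself favours enriched sites. Members and broad regions are also set apart by width, and the value is that of the highest of a region's peaks. The part of these conditions in the differences was not tested. Fold enrichment is read within a list only and does not rank the cell types.

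The order of members by fold enrichment was most alike in aRG-N and bRG and least alike in NEC and N. Spearman's rho over the 8229 members was 0.84 for aRG-N and bRG, 0.76 for NEC and aRG-N, and 0.58 for NEC and N. The 4 pairs with N gave 0.58 to 0.67, and the 6 without it 0.69 to 0.84. In broad regions the same pairs were highest and lowest, at 0.73 and 0.32, and in regions with H3K27me3 at 0.86 and 0.39. These extremes are thus not particular to the members. Pairs with and without N overlapped in both kinds. In broad regions bRG and N gave 0.48 and NEC and aRG-P 0.45, and in regions with H3K27me3 0.71 and 0.55. In members, length was ordered more alike than enrichment, with rho from 0.79 to 0.92. Within a list, enriched members were also longer, with rho from 0.46 to 0.52. These values are across regions, which are not independent replicates, and all lists are read over the same set of regions.

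Members with a higher mean rank over the lists were wider, and more of their width was covered in all lists. Percentiles from here on are among the 8229 members of a list. Split into 5 classes of equal size by the mean percentile over the 5 lists, the median width was 947, 1283, 1447, 1607 and 1784.5 bp, low to high. The stretch covered in all 5 lists took 40.7, 51.4, 55.5, 57.4 and 59.0% of the width. Another H3K4me3 region lay within 1000 bp of 38.0% of the lowest class, and of 23.5 to 29.6% of the other classes. In all 5 lists, 324 members (3.94%) were in the top 20% and 589 (7.16%) in the bottom 20%. A place in the top 20% of 1 list and the bottom 20% of another was held by 234 members (2.84%, 2.5 to 3.23%).

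At the top, the fold enrichment of the member on chromosome 11 from 77419769 to 77421929 was 56.2 for NEC, 20.1 for aRG-P, 24.4 for aRG-N, 20.1 for bRG and 15.4 for N. It had 1 peak in every list, and the 5 summits lay within 72 bp. The second, on chromosome 10 from 127847136 to 127849818, had 48.3, 18.9, 25.7, 18.3 and 16.8 in the same order, with summits within 37 bp. The third, on chromosome 11 from 75300241 to 75301479, had 53.7, 19.7, 25.7, 17.0 and 14.8, and lay 1404 bp from an aRG-N H3K27me3 peak. These 3 ranked at or above percentile 98.9 in every list. All 5 percentiles were 95 or more for 23 members and 5 or less for 44.

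At the bottom, the fold enrichment of the member on chromosome 3 from 79646147 to 79646983 was 6.31 for NEC, 3.67 for aRG-P, 4.35 for aRG-N, 3.25 for bRG and 3.24 for N. Only 48 of its 837 bp were covered in all 5 lists. The member on chromosome 11 from 105897472 to 105898001 had 8.14, 4.36, 3.09, 4.31 and 3.15. On chromosome 14 from 51550882 to 51551402 the values were 3.37, 2.77, 5.22, 4.14 and 4.68. Both of these lay within 300 bp of another H3K4me3 region.

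Ranks often differed between single lists. The highest and lowest of a member's 5 percentiles were a median of 33.3 apart, and 30 or more apart in 4711 members (57.2%). The difference between NEC and the mean of the E14.5 lists cannot exceed that range, so its shares are not set against the 57.2%. The mean percentile of the 4 E14.5 lists was higher than that in NEC by 30 or more in 469 members (5.70%) and lower by as much in 443 (5.38%). These percentiles are among members, and no such share was computed for other constitutive regions. With pooled lists, it is not known how many such shifts replicate error alone would give. The largest excess was on chromosome 1 from 66221373 to 66223996, with a mean percentile of 92.1 at E14.5, against 19 in NEC. Its fold enrichment was 19.2 for NEC, 13.7 for aRG-P, 22.2 for aRG-N, 16.2 for bRG and 13.2 for N, and its length under peaks 1175, 2064, 2326, 1647 and 2059 bp. It was thus shorter in NEC than in any E14.5 list, unlike most members. On chromosome 3 from 89801570 to 89803275 the mean was 90.5 at E14.5, against 21.6 in NEC. On chromosome 1 from 167165910 to 167167146 it was 80.4 at E14.5, against 11.6 in NEC, with N at 57.9 below the progenitors.

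The largest deficit was on chromosome 10 from 68813843 to 68815871. Its fold enrichment was 44.8 for NEC, 6.00 for aRG-P, 9.36 for aRG-N, 5 for bRG and 2.55 for N, a mean percentile of 5.66 at E14.5, against 97.3 in NEC. In N it was the member with the lowest enrichment, and its peak there was 595 bp, against 1868 bp in NEC. The nearest H3K27me3 peak of any list was 218089 bp away. On chromosome 4 from 118108473 to 118110735 the mean percentile was 9.77 at E14.5, against 92 in NEC, and the peak length was 275 bp in N and 2157 bp in NEC. An aRG-N H3K27me3 peak lay 7182 bp from it. On chromosome 3 from 107887819 to 107889715 the mean was 15.2 at E14.5, against 91.0 in NEC. All 3 of these members kept an H3K4me3 peak in every list, so they count as constitutive by presence alone.

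Neurons, too, held different ranks from the E14.5 progenitors at some members. N was higher than the mean of aRG-P, aRG-N and bRG by 30 percentiles or more in 663 members (8.06%) and lower in 610 (7.41%). Here, too, no share was computed for other constitutive regions and replicate error is unknown, so these shares describe the members only. The largest excess was on chromosome 17 from 23003181 to 23004484, at percentile 96.2 in N, against a mean of 22.1 in the progenitors. Its fold enrichment was 26.1 for NEC, 6.00 for aRG-P, 13.0 for aRG-N, 8.02 for bRG and 13.5 for N. On chromosome 1 from 145850345 to 145852123 the percentile was 93.7 in N, against 21.9 in the progenitors, and on chromosome 16 from 59638286 to 59639582 it was 84.7 in N, against 16.5. In both, the percentile in NEC was below that in N, at 46.1 and 28.5.

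The largest deficit of N was on chromosome 15 from 79375368 to 79377107, at percentile 15.8 in N, against a mean of 88.4 in the progenitors. Its fold enrichment was 19.1 for NEC, 14.6 for aRG-P, 20 for aRG-N, 13.9 for bRG and 7.00 for N, so that NEC, at percentile 18.5, and N were both low and the E14.5 progenitors high. Its summit lay at 79376336 in NEC and 79376450 in N, and at 79376704 to 79376832 in the 3 radial glia lists. On chromosome 2 from 148700043 to 148701341 the percentile was 15.8 in N, against 87.2 in the progenitors, and on chromosome 18 from 60933949 to 60936066 it was 18.1 in N, against 88.9. In both the N summit stood apart from the other 4, at 148700643 against 148700996 to 148701066, and at 60935019 against 60934512 to 60934713.

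**Figure D5:**
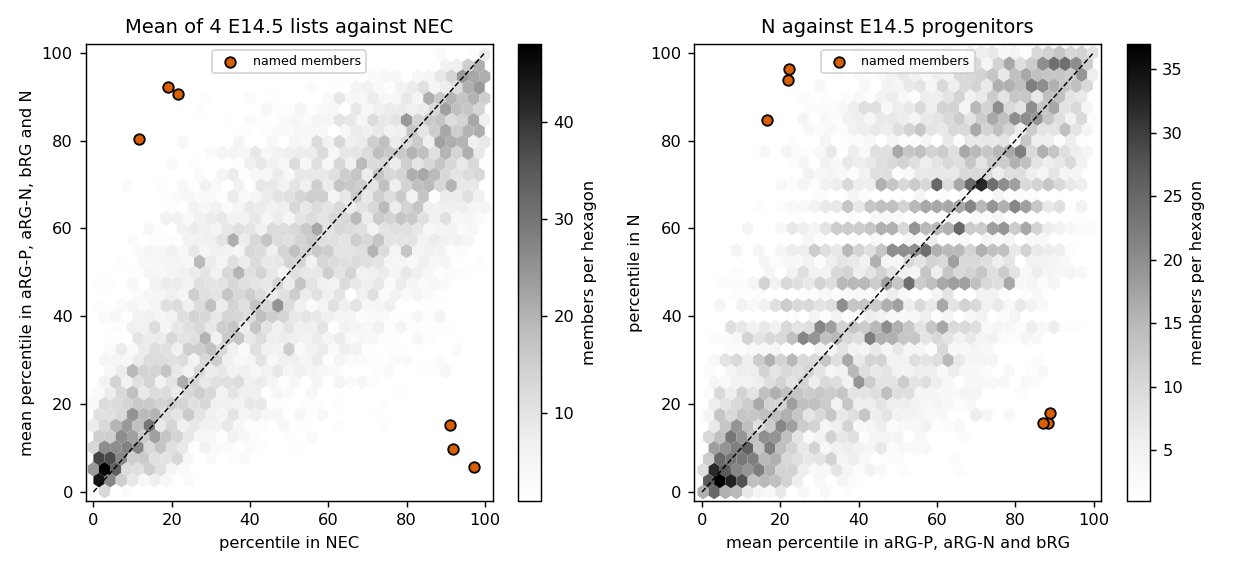
Percentile of fold enrichment among the 8229 members, shown as members per hexagon with the named members as orange points and equality as a dashed line. Left, the mean of the 4 E14.5 lists against NEC, where the lowest named point is at 5.66 for a NEC percentile of 97.3; right, N against the mean of the 3 E14.5 progenitor lists, where named points reach 96.2 for 22.1 and 15.8 for 88.4.

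Distances to H3K27me3 are to listed peaks. Peak numbers skip 26.5 to 36.6% of the H3K27me3 calls, so an unlisted peak may lie closer. The nearest H3K27me3 peak of any list was a median of 60388 bp away (58067 to 62729 bp), and 4516 members (54.9%) had none within 50000 bp. It lay under 1000 bp from 382 members (4.64%, 4.20 to 5.12%), and NEC alone had the nearest peak for 250 of them. The 402 broad regions without H3K27me3 lay farther away, at a median of 90857.5 bp (71272 to 117331 bp), and 2.24% (1.03 to 4.21%) of them lay under 1000 bp from one. This difference was not tested. The median distance to a list's own peaks was 86591 bp for NEC, 131742 bp for aRG-P, 103015 bp for aRG-N, 173283 bp for bRG and 109955 bp for N, so a list with more H3K27me3 peaks had them closer. The lists held 9460, 5075, 6830, 3476 and 5734 peaks in the same order. With all H3K27me3 lists shortened to the same number of peaks the median over the regions then without H3K27me3 was 98509 bp.

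Members next to H3K27me3 ranked slightly lower in H3K4me3. The mean list percentile over the 5 lists had a median of 64.2 (61.2 to 66.6) in members under 1000 bp from H3K27me3 and 68.7 (67.9 to 69.4) in those at 50000 bp or more. The median widths were 1337 and 1461.5 bp. The nearest member, on chromosome 2 from 162768748 to 162769698, directly adjoined an N H3K27me3 peak and lay 120 bp from a NEC one. Its fold enrichment was 16.7 for NEC, 4.71 for aRG-P, 7.93 for aRG-N, 4.93 for bRG and 5.79 for N, below percentile 14 among members in every list. The next were on chromosome 16 from 22438025 to 22439829, 2 bp from an aRG-N peak, and on chromosome 17 from 80294117 to 80295879, 3 bp from an N peak. The chromosome 16 member was at percentile 89.8 in NEC and at 17.1 to 38.9 in the E14.5 lists. By listed peaks, the farthest member lay 4416379 bp away, on chromosome 1 from 113760633 to 113761799. The next lay 4216263 bp away on chromosome 15 from 18748005 to 18750040, and 3954481 bp on chromosome 12 from 21291236 to 21292995.

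Members were spread over all 19 autosomes, at 66.0% (60.5 to 71.3%) of the constitutive regions on chromosome 18 to 76.8% (73.0 to 80.3%) on chromosome 17. In windows of 100000 bp, 3272 windows held a single member, and 39.8% of all members, while 16 windows held 6, 7 held 7, 6 held 8, 1 held 9 and 1 held 10. The densest, on chromosome 19 from 8800001 to 8900000, held 10 members, 382 to 2712 bp wide, and no other constitutive region. Their fold enrichment ran from 17.7 to 42.4 in NEC and from 6.22 to 12.6 in N, and none lay closer than 55713 bp to H3K27me3. The window on chromosome 19 from 7000001 to 7100000 held 9 members. The first of the windows with 8 was on chromosome 7 from 26000001 to 26100000.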

How the data were processed

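H3K4me3 and H3K27me3 were profiled by ChIP-seq with a kit for low cell numbers, per the labels' protocols. Bowtie 1.0.0, MACS2, bedtools and build mm9 are named in the submitters' processing notes, without their roles. Samples were grouped by cell type and mark, giving 10 groups of 2, and Input was not analysed here. Each deposited list was called on combined samples, per the peak names, so replicates could not be compared. Peak names also show that a set was excluded for H3K27me3 in aRG-P and that reads were extended by 200 bp for H3K27me3 in N. The 2 aRG-N H3K27me3 samples are technical replicates, per the labels. The listed peaks are those near transcripts, per the file headers, which for H3K4me3 in aRG-P and aRG-N give a window of 2000 bp. Peak numbers skip 8.63 to 17.8% of the H3K4me3 and 26.5 to 36.6% of the H3K27me3 calls, so an absent peak may be an unlisted one, and sites far from transcripts may be left out.

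For H3K4me3 the deposited values are a fold enrichment (a ratio), −log10 p and −log10 q per peak, and a summit offset. The H3K27me3 columns are called a score here, since the meaning of the deposited values could not be settled, and served only to shorten lists. Read depth is unknown, so precision is given for counting error only.

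Regions were merged and measured in Python 3.11.15 (pandas 2.3.3, numpy 2.4.6), intervals were computed with scipy 1.17.1, and figures with matplotlib 3.10.9. Length is the bp under a list's peaks in a region. Fold enrichment and summit are those of the list's highest peak there. A percentile is an average rank, within a list or among members. Named regions were the 3 at each end of the mean percentile, of the E14.5 over NEC and of the N over progenitor differences, the 3 widest, narrowest and just beyond the limit, the 3 nearest to and farthest from H3K27me3, the 3 largest summit spans and the 3 densest windows. Members, settings and lists were chosen with earlier results of these data known. On simulated lists made from the deposited ones (17229 merged regions), 200 of 200 removals, 200 of 200 added H3K27me3 peaks, 200 of 200 widened and 200 of 200 added regions were found, and no other region was lost or gained. The changed members were all more than 5000 bp from another H3K4me3 region and from H3K27me3. Regions were added away from all listed peaks, so changes to members with close neighbours were not tried. Alternatives were stricter peaks (−log10 q of at least 5), lists of equal length, other width limits, a coverage minimum, wider merging, a margin around H3K27me3, fewer H3K27me3 lists, other summit and length definitions and, added after seeing the data, members without a near neighbour.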

Additional observations from a re-analysis of the deposited data

How the results depend on the processing

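No paired analysis was possible because each list pools its samples, and no replicate could be left out for the same reason. Of 124 values under 12 alternatives, 64 lay within the interval of the value reported and 50 outside it. The other 10 were numbers of members, which have no interval and ran from 5784 (each list covering at least 50% of the region) to 8803 (H3K27me3 lists of equal length), against 8229 as reported. The cause of a move was not tested except where the alternative's construction sets it. With −log10 q of at least 5, the width was 1437 bp, the enrichment percentile 66.8, the share with 1 peak in every list 69.1% and the share with a region within 5000 bp 30.2%. With H3K4me3 lists of equal length, the percentile was 67.0, the single-peak share 68.3% and the neighbour share 27.9%. With H3K27me3 lists of equal length, the percentile was 67.1 and the distance to H3K27me3 98509 bp. That distance was 68229 bp without the aRG-P and N H3K27me3 lists and 71132.5 bp for members with no H3K27me3 within 5000 bp. Merging across gaps of up to 1000 bp gave a width of 1571 bp, a shared stretch of 51.2%, a percentile of 69.5, summits within 500 bp in 82.3%, a single-peak share of 48.0% and a neighbour share of 8.37%, and length shares past 1.5 times of 58.5% (aRG-P over NEC), 25.5% (aRG-N over aRG-P) and 9.33% (bRG over aRG-N). By the longest peak these were 58.7%, 34.3% and 16.6%, and 25.2% for N over aRG-N. With each list covering at least 50% of the region they were 40.1%, 11.2%, 2.94% and 5.77%, with a width of 1464 bp, a shared stretch of 58.8%, a percentile of 72.3, summits within 500 bp in 82.6%, a neighbour share of 33.0% and a distance of 63336.5 bp. A limit of 2000 bp gave a width of 1273 bp, a shared stretch of 53.0%, a percentile of 64.8, summits within 500 bp in 90%, a single-peak share of 72.9%, a neighbour share of 36.5%, a distance of 56354 bp, and length shares of 26.0% (aRG-N over aRG-P) and 9.52% (bRG over aRG-N). A limit of 4000 bp gave a width of 1440 bp, a percentile of 68.9, summits within 500 bp in 83.0% and a single-peak share of 62.8%. Members with no other region within 1000 bp, an alternative added after seeing the data, had a width of 1481.5 bp, summits within 500 bp in 83.1% and a single-peak share of 59.2%. Unknown read depth limits the comparison of lengths and gaps between lists.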

Other observations

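Chromosome X, left out of the members, held 345 H3K4me3 regions present in all 5 lists. No H3K27me3 peak overlapped 189 of them (54.8%, 49.4 to 60.1%), and 186 (53.9%) were also narrower than 3000 bp, against 72.5% of the autosomal constitutive regions. The median list percentile of these 186 regions was 44.9 for NEC, 30.4 for aRG-P, 34.7 for aRG-N, 29.5 for bRG and 24.6 for N, against 66.2 to 72.6 in the autosomal members. Their median length under peaks was 1159.5 bp for NEC, 567.5 bp for aRG-P, 938 bp for aRG-N, 713.5 bp for bRG and 604.5 bp for N.

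A further 393 autosomal regions met every condition of the members but had a peak in 4 lists only. The list without a peak was aRG-P for 170 (43.3%, 38.3 to 48.3%), N for 103 (26.2%), bRG for 62 (15.8%), NEC for 40 (10.2%) and aRG-N for 18 (4.58%). Their median width was 682 bp, against 1414 bp in the members.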
